A study of Mus musculus with 16 samples.

Results

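The genes described here are 10 genes of the STAT5 pathway in mouse leukaemic cells: the transcription factor genes Stat5a and Stat5b, the feedback genes Cish, Socs1, Socs2, Socs3 and Socs5, the survival kinase genes Pim1 and Pim2, and the repressor gene Bcl6. They were chosen by name, and the rule uses no measured value, though earlier results of these data were known when they were chosen. All 10 were found among the 50686 genes counted. RNA was sequenced from 8 cell lines, each grown from mouse bone marrow transformed with a retrovirus carrying BCR-ABL1p185. All lines came from C57BL/6N mice and grew without added growth factor. Of these, 4 lines were Cdk8 fl/fl controls, whose Cdk8 gene is flanked by recombination sites and which the labels call wild type, and 4 were Cdk8 Δ/Δ Vav-Cre lines, called Cdk8 KO below. Cre driven by the Vav promoter acts in blood-forming cells, so Cdk8 was deleted before transformation. Vav-Cre appears only in the name of the Cdk8 Δ/Δ lines, and the study names the controls Cdk8 fl/fl without Cre. Presence of Cre and loss of Cdk8 therefore cannot be told apart in the genotype comparisons. Each line was cultured for 48 h with the solvent DMSO and with 1 µM Senexin B, an inhibitor of the kinases CDK8 and CDK19, which gave 16 libraries in 4 groups of 4. A replicate number named a line, so line 1 of one genotype and line 1 of the other are different lines.

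STAT5 is a latent transcription factor that cytokine receptors activate through JAK kinases, and that BCR-ABL1 activates without a cytokine. Active STAT5 switches on genes that restrain the signal: CISH and the SOCS proteins bind receptors or JAKs and mark them for degradation. It also switches on genes that keep lymphoid cells alive, among them the serine/threonine kinases PIM1 and PIM2. Bcl6 stands on the other side of this circuit in early B cells, because the repressor it encodes is held down by STAT5 and is released when STAT5 activity drops. CDK8 is a kinase of the Mediator complex and is known to phosphorylate STAT proteins, so these genes ask how STAT5-dependent transcription stood with CDK8 lost or inhibited.

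STAT factors recognise a palindrome that reads TTCNNNGAA on both strands. Promoters of 250 bases before to 50 bases after each RefSeq start (GRCm38.p6) were searched for it, and the table had entries for 8 of the 10 genes, all but Socs2 and Socs5. The palindrome was present in 8.30% of all 32851 promoters, in 2 or more copies in 0.457% and in 3 or more in 0.0335%. Counted by gene, it was present in 9.55% of 27025 genes and in 3 of the 8 described here. Cish, Socs3 and Bcl6 held it, and the windows of Stat5a, Stat5b, Socs1, Pim1 and Pim2 did not. Shown with the palindromes in capitals are the copies in Cish, whose response varied most between lines, in Socs3, and in both promoters of Bcl6, the gene that went one way in every line.
Cish, chr9:107296654-107296683, plus strand: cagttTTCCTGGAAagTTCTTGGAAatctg
Socs3, chr11:117969502-117969531, minus strand: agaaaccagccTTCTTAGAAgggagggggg
Bcl6, first start, chr16:23988952-23988981, minus strand: tagcaaattagTTCTCAGAAttccagaggc
Bcl6, internal start, chr16:23981284-23981533, minus strand: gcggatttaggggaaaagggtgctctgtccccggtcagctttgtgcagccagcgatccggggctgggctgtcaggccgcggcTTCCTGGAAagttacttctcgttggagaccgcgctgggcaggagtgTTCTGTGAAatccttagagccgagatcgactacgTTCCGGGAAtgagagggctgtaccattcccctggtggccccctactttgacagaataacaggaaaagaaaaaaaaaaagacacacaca
The 2 copies in Cish begin at positions 1 and 12 counted from the start, while the copy in Socs3 lies 154 bases before it. Bcl6 held 1 copy 118 bases before its first start and 3 copies at 168, 122 and 88 bases before the internal start. These are matches of letters and not measured binding sites, and the counts do not tell the starts of Bcl6 apart.

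Library totals ran from 13145876 to 18349425 counts on genes. Cdk8 RNA lay between 61.8 and 68.7 counts per 1000000 (CPM) in Cdk8 fl/fl lines with DMSO and between 35.3 and 52.1 CPM in Cdk8 KO lines with DMSO. With Senexin B the ranges overlapped, at 55.2 to 89.4 CPM in Cdk8 fl/fl and 41.2 to 61.7 CPM in Cdk8 KO lines. The counts are for the whole gene, the deleted part was not measured separately, and the source of the Cdk8 RNA in Cdk8 KO lines was not tested. The pro-B and pre-B cell markers Pax5 and Ebf1 were at 695 CPM or more in every library, and the summed level of 7 myeloid markers ran from 0.504 to 25.1 CPM. Of these, Lyz2 was detected in every library (0.164 to 24.6 CPM), and Elane and S100a8 were at 0 counts in all 16. Rag1, a recombinase gene of the same B cell stage, ran from 1.22 to 124 CPM over the libraries and had a log2 fold change of 3.51 by genotype in DMSO (standard error 0.70, adjusted p = 0.897), and its part in the results below was not tested. Cdk8 fl/fl line 1 stood apart from the other lines of its genotype, and Cdk8 KO line 1 did so less clearly. Over 14164 genes, the Senexin B minus DMSO differences of Cdk8 fl/fl line 1 correlated at r = -0.154 to -0.0504 with those of the other 3 Cdk8 fl/fl lines, which correlated among themselves at 0.364 to 0.583, and at 0.53 with those of Cdk8 KO line 1 (genes share libraries and are not independent replicates). Those of Cdk8 KO line 1 correlated at -0.205 to -0.141 with Cdk8 fl/fl lines 2 to 4 and at -0.0826, 0.0521 and 0.257 with Cdk8 KO lines 3, 4 and 2. Cdk8 KO lines 2 to 4 correlated among themselves at 0.134 to 0.352. Csf2rb2, the receptor gene with the clearest response here, was lower with Senexin B in all 8 lines, Cdk8 fl/fl line 1 included (log2 difference -2.42). The DMSO library of Cdk8 fl/fl line 1 is also the only one whose file header names a different annotation folder, with the same gene models. Leaving out Cdk8 KO line 1 raised the genes called under the block in Cdk8 KO lines from 7 to 31, with none of the 10 among them. Within a genotype, the paired results of Cish, Socs3, Pim1 and Bcl6 are given with and without its line 1. The same was done for Pim2 in Cdk8 fl/fl lines. Other results are given with all lines unless stated.

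The transcripts differed widely in abundance, from the PIM kinase Pim1 at the top to Socs5 and Bcl6 at the bottom. On the scale of CPM per kilobase of exon, the level in the Cdk8 fl/fl DMSO lines was 118 ± 3.03 (SD, n = 4) for Pim1, 50.1 ± 24.4 for Socs2, 18.8 ± 3.01 for Stat5b, 15.5 ± 7.59 for Pim2, 13.5 ± 5.20 for Socs1, 7.26 ± 0.554 for Stat5a, 7.15 ± 2.99 for Cish, 4.11 ± 1.97 for Socs3, 1.31 ± 0.841 for Socs5 and 0.574 ± 0.215 for Bcl6. The ranges over 4 lines did not overlap between Pim1 and Socs2, between Socs2 and Stat5b, or between Socs1 and Stat5a, and they overlapped between all other neighbours in this order. The Cdk8 KO lines in DMSO had the same order apart from Pim2, which ranked above Stat5b with an overlapping range. Depth behind these levels also differed: Socs2 had 2939 to 18866 counts per library, whereas Socs5 had 10 to 194 and Bcl6 18 to 156.

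**Figure D1:**
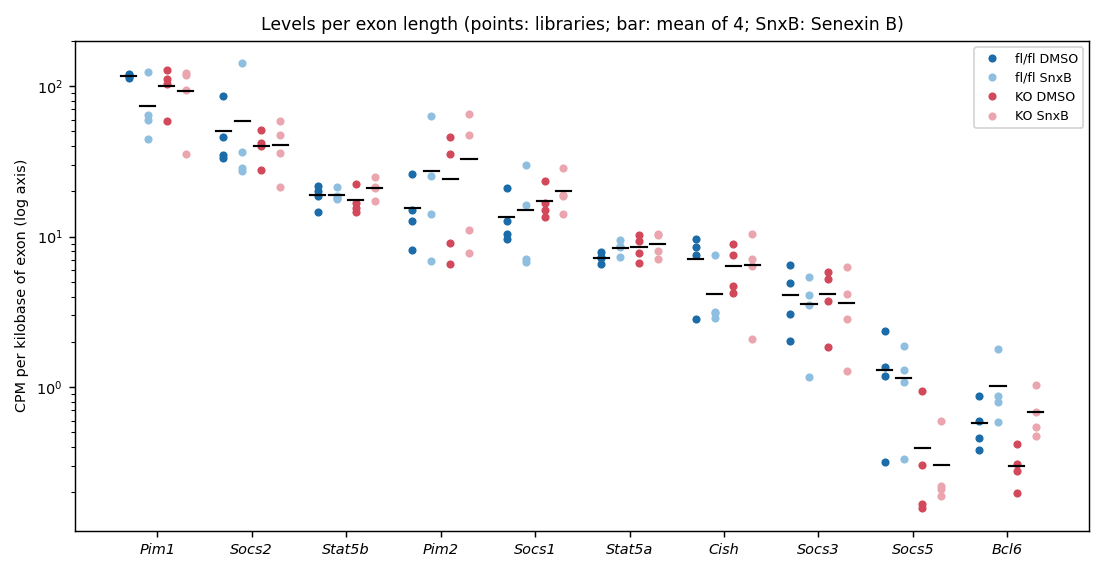
Level of each of the 10 genes in CPM per kilobase of exon (log axis), with 1 point per library and a bar for the mean of 4 lines, in Cdk8 fl/fl and Cdk8 KO lines with DMSO or Senexin B (SnxB). Pim1 is highest by mean in all 4 groups, and Socs5 and Bcl6 lie lowest, at no more than 2.37 CPM per kilobase.

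Across both genotypes and both treatments, the transcripts with the smallest p-values were Socs5 and Bcl6 by genotype, and Bcl6, Pim1 and Pim2 by Senexin B within line. None passed an adjusted p under 0.05 together with a fold change over 2 (edgeR quasi-likelihood test, Benjamini-Hochberg adjustment over all genes tested) in any of the 6 comparisons. That count of 0 of 10 stands beside 0.00759% of all genes tested for genotype in DMSO, 0% for genotype with Senexin B, 0% for Senexin B in Cdk8 fl/fl lines, 0% for Senexin B in Cdk8 KO lines and 0% for the interaction. It stands beside 0.946% when Senexin B was tested within line over all 8 lines, with the line as a block. Bcl6 alone passed the adjusted p limit in that last comparison, 1 of 10 beside 2.63% of 14164 genes. DESeq2 also called none of the 10 in any comparison.

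**Figure D2:**
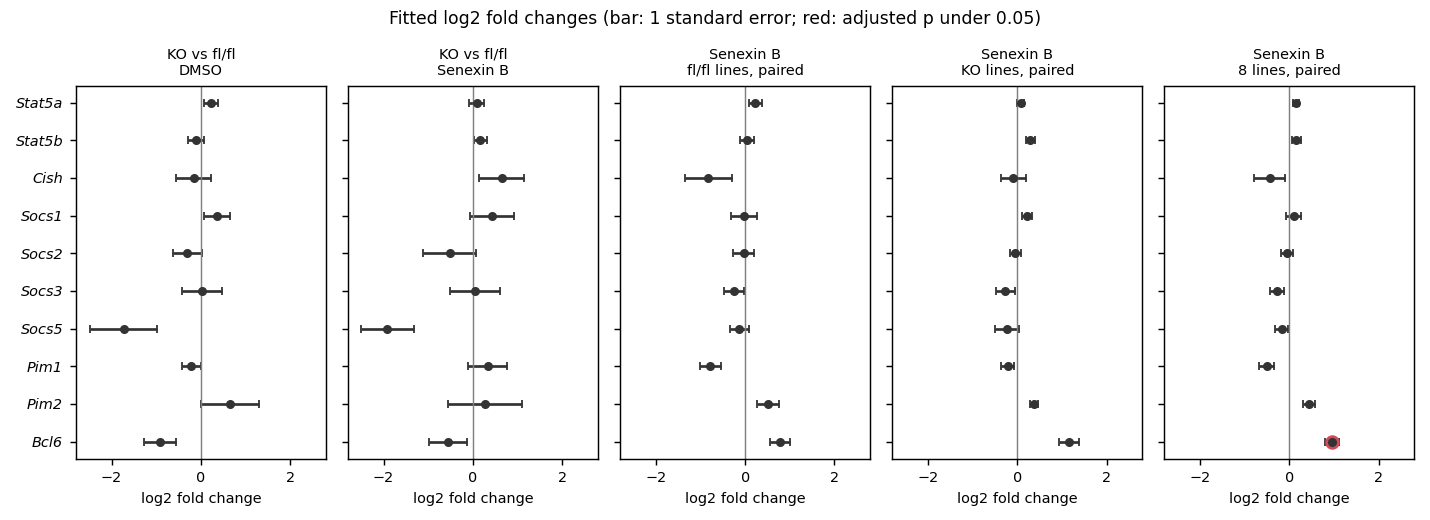
Fitted log2 fold change of each gene, with a bar of 1 standard error, for Cdk8 KO against Cdk8 fl/fl in DMSO and with Senexin B, and for Senexin B against DMSO in Cdk8 fl/fl, Cdk8 KO and all 8 lines with the line as a block. Bcl6 over 8 lines, at 0.95, is the 1 point marked in red for an adjusted p under 0.05.

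By genotype in DMSO, 2 of 10 genes had an unadjusted p under 0.05, Socs5 and Bcl6, beside 5.32% of 13174 genes tested. With Senexin B this was 1 of 10, Socs5, beside 1.55% of 13010. All 10 genes had overlapping ranges between Cdk8 KO and Cdk8 fl/fl lines under both treatments, where 3.14% of genes in DMSO and 0.999% of genes with Senexin B did not overlap. The median log2 fold change of the 10 was -0.14 in DMSO and 0.12 with Senexin B, beside medians of 0.0017 and -0.0037 over all genes tested. The comparisons share no library but share the lines.

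Both STAT5 genes varied little from line to line. Stat5a and Stat5b lie side by side on chromosome 11 of GRCm38 (100859351 to 100885169 and 100780731 to 100850724) and encode the 2 STAT5 proteins. Stat5a had 51.4, 52.2, 56.6 and 47.0 CPM in Cdk8 fl/fl lines 1 to 4 with DMSO and 47.4, 72.7, 67.0 and 55.4 CPM in Cdk8 KO lines 1 to 4. Stat5b had 81.2, 120, 112 and 104 CPM in the former and 81.2, 86.5, 125 and 93.0 CPM in the latter. The highest of the 8 DMSO lines exceeded the lowest 1.55-fold for Stat5a and 1.53-fold for Stat5b, the smallest spread among the 10 genes. Neither genotype stood above the other, with overlapping ranges and log2 fold changes of 0.23 (standard error 0.15) for Stat5a and -0.11 (standard error 0.18) for Stat5b in DMSO. With Senexin B, Stat5a was higher in 7 of 8 lines, by at most 0.39 on the log2 scale. Of all genes, 16.7% had 7 or 8 lines in one direction. Stat5b was higher in 6 of 8, all 4 Cdk8 KO lines among them. All 4 Cdk8 KO lines went one way for 19.2% of genes. Neither STAT5 gene passed the test over 8 lines (adjusted p = 0.343 and 0.444), and the paired fit in Cdk8 KO lines gave Stat5b 0.30 (standard error 0.10, adjusted p = 0.386). Per exon length, Stat5b stood between 1.53 and 3.04 times above Stat5a in every library. This ratio is uncertain, since 8.21% of the 50-base windows of Stat5a transcripts also occur in Stat5b and 608 of the 5535 windows of Stat5b in Stat5a, with reads mapping to both not counted, and since 72 exon bases of Stat5a are shared with Stat3 on the other strand.

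Among the feedback genes, Cish had the largest differences within a line, and in both directions. Cish (chromosome 9, 107296026 to 107302784) encodes an SH2 protein that is itself induced by STAT5 and is a standard readout of its activity. In DMSO it had 18.3, 54.7, 48.6 and 62.0 CPM in Cdk8 fl/fl lines 1 to 4 and 48.6, 27.3, 57.5 and 30.04 CPM in Cdk8 KO lines 1 to 4. With Senexin B the values were 48.7, 20.3, 19.9 and 18.5 CPM in the Cdk8 fl/fl lines and 67.1, 41.1, 45.7 and 13.5 CPM in the Cdk8 KO lines. Cdk8 fl/fl line 1 was thus the lowest of its group in DMSO and the highest with Senexin B, while the other 3 Cdk8 fl/fl lines all went down. Within line, the log2 difference was 1.41 in Cdk8 fl/fl line 1 and -1.42, -1.28 and -1.74 in lines 2, 3 and 4. The paired fit over all 4 Cdk8 fl/fl lines gave -0.82 (standard error 0.52, adjusted p = 0.665). Without both libraries of line 1, an alternative chosen after the data were seen, it gave -1.49 (standard error 0.16, adjusted p = 0.000814), and Cish then passed both limits with Pim1, 2 of 10 beside 4.15% of 12976 genes. Leaving out each line in turn gave -1.49 to -0.49 for Cish, which was called only without line 1. In Cdk8 KO lines the differences were 0.46, 0.59, -0.33 and -1.15 and the paired fit gave -0.08 (standard error 0.27), or -0.28 without Cdk8 KO line 1 (standard error 0.29, adjusted p = 0.775). Cish shares 740 exon bases with 2 genes on the opposite strand, which the counting did not separate.

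Socs1 and Socs3, which block JAK kinase activity, showed no difference that passed the test. Socs1 ranged from 8.24 CPM in Cdk8 fl/fl line 4 with Senexin B to 36.8 CPM in Cdk8 fl/fl line 2 with Senexin B. All 4 Cdk8 KO lines had a higher Socs1 level with Senexin B, by 0.06 to 0.34 on the log2 scale, and the Cdk8 fl/fl lines divided 2 and 2. One direction in all 4 Cdk8 KO lines was found for 19.2% of genes. Socs3 ranged from 3.39 to 18.7 CPM and was lowest in line 4 of both genotypes under both treatments. Its fitted log2 differences with Senexin B were -0.25 (standard error 0.23) in Cdk8 fl/fl and -0.27 (standard error 0.21) in Cdk8 KO lines under the block. Without Cdk8 fl/fl line 1 the former was -0.40 (standard error 0.23). Without Cdk8 KO line 1 the latter was -0.039 (standard error 0.19).

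Socs2, a regulator of growth hormone and cytokine receptor turnover, was the most abundant of the feedback genes. With DMSO it had 817, 332, 320.0 and 441 CPM in Cdk8 fl/fl lines 1 to 4 and 399, 489, 384 and 265 CPM in Cdk8 KO lines 1 to 4. With Senexin B the Cdk8 fl/fl lines had 1359, 349, 260 and 274 CPM and the Cdk8 KO lines 454, 558, 341 and 205 CPM. Cdk8 fl/fl line 1 was highest under both treatments and the remaining lines overlapped between genotypes. Over 8 lines Senexin B gave a log2 difference of -0.04 (standard error 0.14), with 4 lines up and 4 down.

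Socs5 had the largest fitted genotype difference of the 10 genes. The gene lies on chromosome 17 (87107679 to 87137583), and SOCS5 is a less studied member of the family, linked to interleukin-4 and growth factor receptor signalling. With DMSO, Cdk8 fl/fl lines 1 to 4 had 5.20, 5.98, 10.4 and 1.40 CPM and Cdk8 KO lines 1 to 4 had 0.686, 4.14, 1.33 and 0.736 CPM. With Senexin B the Cdk8 fl/fl lines had 4.75, 5.73, 8.19 and 1.46 CPM, and the Cdk8 KO lines had 0.920, 2.61, 0.971 and 0.836 CPM. The groups overlapped through Cdk8 fl/fl line 4, which lay low, and Cdk8 KO line 2, which lay high. The log2 fold change, Cdk8 KO minus Cdk8 fl/fl, was -1.73 (standard error 0.75, adjusted p = 0.897) in DMSO and -1.92 (standard error 0.59, adjusted p = 1.00) with Senexin B. Leaving out one library at a time moved the DMSO value between -2.64, without Cdk8 KO line 2, and -1.28, without Cdk8 fl/fl line 3. The study, with DESeq2, reported more genes that differed by genotype than were called here. It picked Socs5 for PCR from genes that differed in these same samples, so the direction of Socs5 is not independent evidence. With Senexin B, Socs5 was higher in 3 lines and lower in 5, with a log2 difference of -0.17 over 8 lines (standard error 0.15, adjusted p = 0.629).

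**Figure D3:**
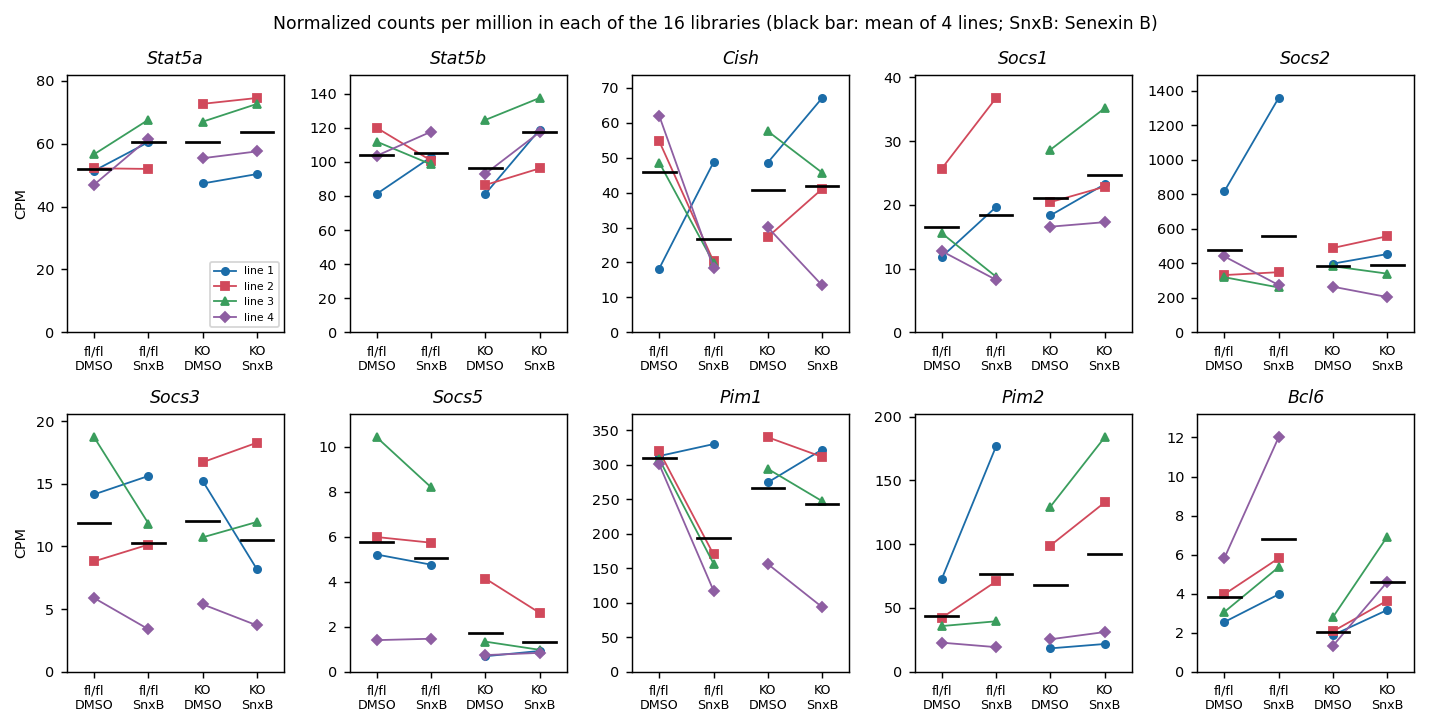
CPM of each gene in all 16 libraries, with a linear axis from 0, a line joining the DMSO and Senexin B (SnxB) library of each cell line, and black bars for group means of 4 lines. Bcl6 goes up in all 8 lines, Cish and Pim1 go down in Cdk8 fl/fl lines 2, 3 and 4 and not in line 1, and Socs5 lies at or below 1.40 CPM in Cdk8 fl/fl line 4 DMSO and in 3 of 4 Cdk8 KO DMSO lines.

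With Senexin B, Pim1 was lower in 6 of 8 lines and Pim2 higher in 7 of 8. Both encode constitutively active survival kinases whose amount is set largely by transcription. Pim1 (chromosome 17, 29490812 to 29496111) was nearly constant in Cdk8 fl/fl lines 1 to 4 with DMSO, at 313, 320, 308 and 301 CPM, and had 274, 340, 294 and 156 CPM in Cdk8 KO lines 1 to 4. With Senexin B the Cdk8 fl/fl lines had 330, 170, 157 and 118 CPM and the Cdk8 KO lines 322, 311, 247 and 93.6 CPM. Again 3 of 4 Cdk8 fl/fl lines went down, with log2 differences from -1.35 to -0.91, and line 1 did not (0.078). The fit without a block gave -0.67 (standard error 0.29, adjusted p = 1.00), the paired fit -0.78 (standard error 0.23, adjusted p = 0.285), and the paired fit without line 1 -1.08 (standard error 0.16, adjusted p = 0.00410), past both limits. In Cdk8 KO lines the paired value was -0.22 (standard error 0.15, adjusted p = 0.669), or -0.37 without Cdk8 KO line 1 (standard error 0.14, adjusted p = 0.371), and over 8 lines it was -0.50 (standard error 0.17, adjusted p = 0.153). Pim1 shares 468 exon bases with a gene on the opposite strand.

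Pim2, on chromosome X (7878262 to 7883432), differed widely between lines. With DMSO it had 72.8, 42.2, 35.8 and 22.8 CPM in Cdk8 fl/fl lines 1 to 4 and 18.3, 98.9, 129 and 25.4 CPM in Cdk8 KO lines 1 to 4, a spread of 7.08-fold. With Senexin B these became 177, 70.8, 39.5 and 19.2 CPM and 21.7, 133, 184 and 31.1 CPM. Of the 8 lines, 7 were higher with Senexin B, all but Cdk8 fl/fl line 4, beside 16.7% of genes with 7 or 8 lines in one direction. The log2 difference over 8 lines was 0.43 (standard error 0.14, adjusted p = 0.130). It was 0.37 (standard error 0.09, adjusted p = 0.251) in Cdk8 KO lines and 0.50 (standard error 0.24, adjusted p = 0.532) in Cdk8 fl/fl lines under the block. Without Cdk8 fl/fl line 1 the latter was 0.23 (standard error 0.20).

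Bcl6 was the only one of the 10 genes that went the same way in all 8 lines. It lies on chromosome 16 (23965052 to 23988852) and encodes a zinc-finger repressor that protects pre-B cells from apoptosis and DNA damage signals. Bcl6 had 2.54, 3.97, 3.06 and 5.81 CPM in Cdk8 fl/fl lines 1 to 4 with DMSO and 3.96, 5.81, 5.35 and 12.0 CPM in the same lines with Senexin B. The Cdk8 KO lines had 1.87, 2.07, 2.79 and 1.33 CPM in DMSO and 3.16, 3.64, 6.92 and 4.60 CPM with Senexin B. In Cdk8 KO lines every Senexin B library was above every DMSO library, and in Cdk8 fl/fl lines the groups overlapped. The share of all genes without overlap between treatments was not determined. By the interaction, the response did not differ detectably between genotypes (0.36, standard error 0.55). Over 8 lines the log2 difference was 0.95 (standard error 0.15, adjusted p = 0.00919), which passed the adjusted p limit and was below 2-fold. A difference in one direction in all 8 lines was found for 4.55% of 14164 genes. Within genotype, the paired fits gave 0.78 (standard error 0.22, adjusted p = 0.247) in Cdk8 fl/fl and 1.16 (standard error 0.23, adjusted p = 0.177) in Cdk8 KO lines, neither past the limit. Without Cdk8 fl/fl line 1 the former was 0.81 (standard error 0.23, adjusted p = 0.0595), and without Cdk8 KO line 1 the latter was 1.28 (standard error 0.25, adjusted p = 0.109). These had the lowest adjusted p when each line was left out in turn. The paired fits then gave 0.66 to 0.85 in Cdk8 fl/fl lines, with adjusted p up to 0.848. In Cdk8 KO lines they gave 0.99 to 1.28, with adjusted p up to 0.543. Every one of the fits that left out 1 library kept the 8-line value between 0.85 and 1.01 with an adjusted p of at most 0.0296, and without either library of Cdk8 fl/fl line 1 it was 0.99. By genotype, the log2 fold change of Bcl6 was -0.92 in DMSO (standard error 0.36, adjusted p = 0.897) and -0.56 with Senexin B (standard error 0.42, adjusted p = 1.00). In bulk RNA, fewer cells expressing a gene and less RNA per cell cannot be told apart. Among markers of other B cell stages and other cell types, the summed CPM of 4 mature B cell markers ran from 16.4 to 73.1 with DMSO and from 13.2 to 65.3 with Senexin B. Most of it came from Ighd (7.59 to 49.4 CPM) and Cr2 (2.54 to 40.4 CPM), both detected in every library. Ms4a1 was at 2.09 CPM or less and Fcer2a at 0.243 CPM or less. The summed CPM of 5 T cell markers ran from 17.6 to 133 over all 16 libraries, nearly all of it from Lck, with Cd3e at 0 in 12 libraries. With Senexin B over 8 lines, the pre-B cell marker Cd79b fell (log2 difference -0.38, standard error 0.08, adjusted p = 0.0308). It was 1 of 9 pro-B and pre-B markers, whose median log2 difference over 8 lines was 0.019. In Cdk8 fl/fl lines without a block, 3 of the 9 had an unadjusted p under 0.05, all upward, beside 3.80% of genes. In Cdk8 KO lines none did. The myeloid marker Lyz2 had -0.83 (standard error 0.26, adjusted p = 0.121) and the mature B cell marker Cr2 -0.74 (standard error 0.27, adjusted p = 0.203). The part of these markers in the Bcl6 result was not tested.

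Within one genotype, the Senexin B counts depended on the pairing of libraries by line. Without a block, 1 of 10 genes had an unadjusted p under 0.05 in Cdk8 fl/fl lines, Pim1, beside 3.80% of 12989 genes, and 1 of 10 in Cdk8 KO lines, Bcl6, beside 1.83% of 13285. With the line as a block this became 2 of 10 in Cdk8 fl/fl lines, Pim1 and Bcl6, and 3 of 10 in Cdk8 KO lines, Stat5b, Pim2 and Bcl6, each beside 10.3% of genes. The block raised the number of genes called over the whole transcriptome from 0 to 45 in Cdk8 fl/fl lines (0.346%) and from 0 to 7 in Cdk8 KO lines (0.0527%), with none of the 10 among them. Over 8 lines, Bcl6, Pim1 and Pim2 had an unadjusted p under 0.05, 3 of 10 beside 16.4%. All 4 lines went one way for Bcl6 in Cdk8 fl/fl lines (1 of 10, beside 17.8% of genes) and for Stat5a, Stat5b, Socs1, Pim2 and Bcl6 in Cdk8 KO lines (5 of 10, beside 19.2%).

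Line by line, the differences of Cish and Pim1 were the most alike of any pair among the 10 genes. The lines ranked almost alike for both: Cdk8 fl/fl line 4 had the lowest difference for both genes, followed by lines 2 and 3 in either order, and Cdk8 KO line 4 came next. Cdk8 fl/fl line 1 and Cdk8 KO line 1 were the only lines with a positive difference for Pim1 and were positive for Cish as well. Over the 8 lines the differences of Cish and Pim1 correlated at r = 0.929, and those of Socs2 correlated at 0.872 with Cish and at 0.795 with Pim1. Those of Bcl6 correlated at -0.34 with Cish and at -0.224 with Pim1. Each r is a description over 8 points that share libraries between genes. In the 8 DMSO libraries alone, Cish and Pim1 correlated at 0.148.

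**Figure D4:**
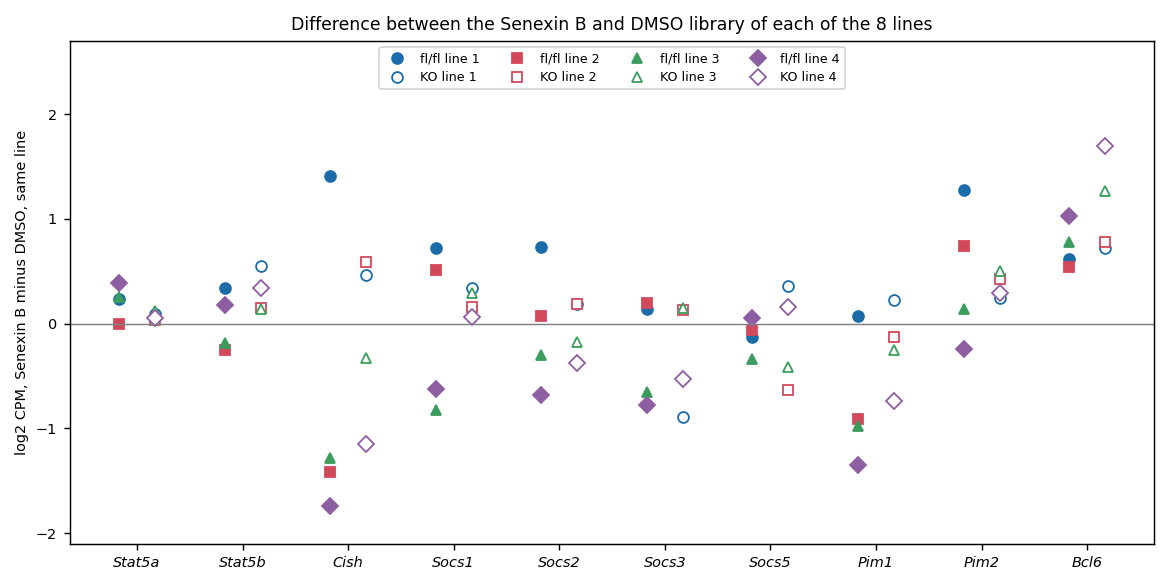
Log2 CPM with Senexin B minus log2 CPM with DMSO for each gene in each of the 8 lines, with filled symbols for Cdk8 fl/fl and open symbols for Cdk8 KO lines. For Cish, Cdk8 fl/fl line 1 lies at 1.41 and the other 3 Cdk8 fl/fl lines at -1.28 or below, while all 8 points of Bcl6 lie above 0.

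The response to Senexin B was then compared between genotypes, which asks whether these genes responded differently in Cdk8 KO and Cdk8 fl/fl lines. None of the 10 interaction terms had an unadjusted p under 0.05, where 0.473% of 14164 genes did, and with the line as a block none of the 10 did, beside 3.24% of genes. The largest terms, Cdk8 KO response minus Cdk8 fl/fl response, were 0.81 for Cish (standard error 0.68) and 0.55 for Pim1 (standard error 0.52). With the block, Pim1 had 0.58 (standard error 0.30, adjusted p = 0.991). For Bcl6 the term was 0.36 (standard error 0.55) and 0.39 with the block (standard error 0.30). A term of 0 lay within 2 standard errors of each of these values.

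Other genes of the pathway were read from lists chosen with earlier results of these data known. They were described in the comparisons without a block within genotype, except where the block is named. All 4 JAK kinase genes were tested and none had an unadjusted p under 0.05 in any comparison, with a median log2 difference of -0.11 over 8 lines beside -0.0048 for all genes. The smallest p-values there belonged to Jak2 and Jak3, both at -0.13 (adjusted p = 0.505 and 0.728). Of 13 cytokine receptor genes 9 were tested, and over 8 lines 2 passed the adjusted p limit, both downward, and 1 of them the fold limit as well, beside 2.63% and 0.946% of all 14164 genes. Csf2rb2 and Csf2rb encode the beta chains of the interleukin-3 and GM-CSF receptors. Csf2rb2 fell from 33.7 ± 8.84 to 7.49 ± 2.20 CPM (SD over 4 lines) in the controls and from 47.2 ± 20.9 to 15.3 ± 8.80 CPM in Cdk8 KO lines, a log2 difference of -1.95 over 8 lines (standard error 0.17, adjusted p = 0.000254). Csf2rb had -0.94 (standard error 0.15, adjusted p = 0.00945). Within Cdk8 fl/fl lines none of the 9 was called without a block and 2 were called with it, beside 0.346% of genes, Csf2rb2 at -2.16 (standard error 0.18, adjusted p = 0.00665) and Csf2rb at -1.17 (standard error 0.17, adjusted p = 0.0374). Il2ra passed the adjusted p limit there, upward (0.91, standard error 0.14, adjusted p = 0.0484). Over 8 lines, Il2ra and Ghr had unadjusted p under 0.05 upward and Crlf2 downward, at 0.69, 0.63 and -0.24. In DMSO, Crlf2, the thymic stromal lymphopoietin receptor, had -0.76 by genotype (standard error 0.22, adjusted p = 0.897). With Senexin B, Csf2rb had 0.66 by genotype (standard error 0.27, adjusted p = 1.00). Il7r, the receptor of the cytokine that drives STAT5 in early B cells, was singled out after its values were seen. Its within-line differences were -1.2 in Cdk8 fl/fl line 1, 1.54 to 1.65 in Cdk8 fl/fl lines 2 to 4, and -1.17, -0.081, 0.29 and 1.11 in Cdk8 KO lines 1 to 4, opposite in sign to those of Cish in 8 of 8 lines. The share of all genes opposite in sign to Cish in every line was not determined, and a link between Il7r and Cish was not tested. Il7r did not pass the test over 8 lines (0.49, standard error 0.36, adjusted p = 0.558).

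Of the 5 other STAT genes, Stat3 alone passed the adjusted p limit over 8 lines (1 of 5, beside 2.63% of all genes), with a log2 difference of -0.47 (standard error 0.08, adjusted p = 0.0129), from 93.1 ± 15.6 to 63.2 ± 14.7 CPM in the controls and from 83.6 ± 13.5 to 65.0 ± 14.2 CPM in Cdk8 KO lines. Stat4 had -0.43 (standard error 0.13, adjusted p = 0.104). The median of the 5 was -0.19. Of 12 other negative regulators of JAK-STAT signalling, 1 passed the adjusted p limit (beside the same 2.63%), Sh2b3, which encodes the JAK2-binding adaptor LNK, at -0.47 (standard error 0.09, adjusted p = 0.0197), and Pias3, an inhibitor of STAT3, had -0.33 (standard error 0.12, adjusted p = 0.195). In DMSO, Pias4 had -0.35 by genotype (standard error 0.13). None of the 4 other SOCS and PIM genes had an unadjusted p under 0.05 over 8 lines, where Socs6 had 0.15 and Pim3 -0.20. Socs4 and Socs7 had -0.24 and -0.44 by genotype in DMSO (both adjusted p = 0.897).

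Of 10 other known STAT5 targets, none passed the adjusted p limit in any comparison, and their median log2 difference over 8 lines was -0.067. Over 8 lines, the anti-apoptotic gene Mcl1 had -0.28 (standard error 0.07, adjusted p = 0.0625), the phosphatase gene Dusp5 -0.26 (standard error 0.08, adjusted p = 0.140) and Id1, an inhibitor of E proteins, 0.78 (standard error 0.28, adjusted p = 0.180). In DMSO the cytokine gene Osm had -0.62 by genotype (standard error 0.27, adjusted p = 0.897), and with Senexin B Id1 had -2.40 (standard error 0.70, adjusted p = 1.00). The D-type cyclin gene Ccnd3 had 0.86 with Senexin B in Cdk8 fl/fl lines without a block (standard error 0.33, adjusted p = 1.00). Mcl1 and Id1, and Cdkn1a (p21) described next, were like Socs5 among the genes the study measured by PCR. Of 6 genes known to be repressed by BCL6, none passed the adjusted p limit. Their median log2 difference was 0.055 over 8 lines, Atr had 0.32 (standard error 0.12, adjusted p = 0.196), and Cdkn1a had -0.78 by genotype in DMSO (standard error 0.28, adjusted p = 0.897). Under the block in Cdk8 KO lines, 2 of the 6 had an unadjusted p under 0.05 upward and 1 downward, beside 10.3% of genes. Their median there was 0.21, and Prdm1 and Atr had the smallest p. In Cdk8 fl/fl lines under the block none had an unadjusted p under 0.05. For the interaction with the line as a block, 2 of the 6 did, both upward, beside 3.24% of genes. A link to Bcl6 was not tested.

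The transcripts whose log2 CPM followed each gene most closely over the 16 libraries were found among 14164 genes, as a description in which the 2 libraries of a line share that line. Pim1 was nearest to Abhd18 (Pearson r = 0.913) and Usp30 (0.907), and Cish to Arhgef3 (0.856) and Klf9 (0.854). Bcl6 was nearest to Tapt1 (0.898) and Cbx2 (0.836), and Socs5 to Pcdh17 (0.893) and Slc39a8 (0.877). Socs2 had Ccdc138 (0.95) and Adat2 (0.922), Socs3 had Fhl1 (0.94) and St3gal4 (0.937), and Socs1 had Meis3 (0.833) and Trpt1 (0.831). Pim2 had Usp11 (0.934), which lies like Pim2 on the X chromosome, and Irs1 (0.904). Stat5a had 1810059H22Rik (0.89) and Ano6 (0.878), and Stat5b had 1700017B05Rik (0.891) and Rxrb (0.811). No member was among the 2 nearest genes of another, and the closest pair of members was Cish and Pim1 at 0.747.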

How the data were processed

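The deposited values are raw counts per gene, made by the authors from single-end 50-base reads with Trimmomatic, STAR (GRCm38) and featureCounts 1.5.1 on GENCODE M13, without strand. Symbols matched 50376 of 50686 identifiers. In R 4.3.3, edgeR 4.0.16 was used with TMM normalization, filterByExpr and quasi-likelihood fits made robust to outliers, with p-values adjusted by Benjamini and Hochberg over all genes tested. Calls needed an adjusted p under 0.05 and over 2-fold. Genotype comparisons and Senexin B comparisons within genotype used 8 libraries each without a block, the 8-line comparison used the line as a block, and the interaction used all 16. Libraries with the same number within a genotype come from one line, and their deviations from group means correlated at 0.586 to 0.87. Log2 CPM used a prior count of 2.

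Named were the 10 genes, list members with an unadjusted p under 0.05 in a comparison described or else the 2 with the smallest p, Cdk8, and the 2 genes nearest to each member. For comparisons within a genotype under the block, not every such list member was named. The members and lists were chosen with earlier results of these data known. None of 120 pairs of libraries was a copy (chi-square per gene at least 23.4). Lines were derived separately, so p-values of the genotype comparisons measure the spread between lines. With the line as a block, p-values measure the spread of differences within lines. The Senexin B and interaction fits without a block treated the libraries of a line as independent. Promoter sequences are from RefSeq (GRCm38.p6). Alternatives were DESeq2 1.42.0, RLE size factors, other filters and limits, other blocks, summed libraries and leaving out each library, and, added after the data were seen, leaving out each line under the block.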

Additional observations from a re-analysis of the deposited data

Results flagged for a closer look

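In 3 of the 40 groups of 4 libraries (10 genes in 4 groups), one library lay far from the other 3 by Dixon's test, where chance flags about 1 in 20 groups. Cish in Cdk8 fl/fl line 1 with Senexin B was at 48.7 CPM, with the other 3 lines at 18.5 to 20.3 CPM. Socs2 in the same library was at 1360 CPM, with the others at 260 to 349 CPM. Socs5 in Cdk8 KO line 2 with Senexin B was at 2.61 CPM, with the others at 0.836 to 0.971 CPM. The same lines were also highest in their groups in DMSO for Socs2 and Socs5, and Cdk8 fl/fl line 1 was lowest for Cish.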

How the results depend on the processing

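None of the 10 genes was called under DESeq2, RLE scaling, a fit of all counted genes, 10 or more counts in each library, the looser adjusted p limit of 0.1, a replicate block, all 16 libraries in one fit, or summed libraries. With no fold change limit 1 was called over 8 lines (Bcl6), and leaving out 1 library gave 0 to 1 there, the 1 being Bcl6 without either library of Cdk8 fl/fl line 2. Over all genes, DESeq2 called 21 by genotype in DMSO, 3 by genotype with Senexin B and 18 for Senexin B in Cdk8 fl/fl lines, where edgeR called 1, 0 and 0. By genotype in DMSO, the filter at 10 counts, the replicate block and leaving out any 1 library each gave 0. By genotype with Senexin B, the looser limit, no filter and all 16 libraries in one fit gave 1 each. For Senexin B in Cdk8 fl/fl lines, no filter gave 3 and the replicate block 45, and in Cdk8 KO lines the block gave 7. Over 8 lines, no fold change limit gave 373 against 134, the filter at 10 counts 40, no replicate block 0, and leaving out 1 library 82 to 185, with 82 without either library of Cdk8 fl/fl line 3, 89 without the DMSO library of line 4, and 177 and 185 without the DMSO and the Senexin B library of Cdk8 KO line 1. Under the block in Cdk8 fl/fl lines, leaving out both libraries of line 1, 2, 3 or 4 gave 538, 0, 9 or 28 genes (0 to 538), with 2 of the 10 called without line 1 and 0 of them otherwise (0 to 2). In Cdk8 KO lines it gave 31, 0, 2 or 0 genes (0 to 31) and 0 of the 10. The causes were not tested. Replicate numbers do not pair lines of different genotypes (same-number correlations of deviations from -0.153 to 0.415, with 1 of 4 lines closest to its own number).

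Without the block, Bcl6 over 8 lines was at 1.00 (adjusted p = 0.574). Fold changes near 0 turned in sign. By genotype in DMSO, Socs3 was -0.0026 without a filter, and with the libraries of a line summed Stat5b was 0.036 and Cish 0.17. For Senexin B in Cdk8 fl/fl lines, Stat5b was -0.0073 without a filter, and Socs1 was -0.028 and Socs2 -0.035 with the replicate block. In Cdk8 KO lines the replicate block gave Cish -0.084 and Socs2 -0.040. Over 8 lines without the block Socs2 was 0.13, and with the line as a block the interaction was 0.0042 for Socs2 and -0.014 for Socs3. The replicate block changed no other call of the 10. Leaving out 1 library or line turned the sign of further values. By genotype in DMSO the range was -0.47 to 0.078 for Socs2, -0.22 to 0.32 for Socs3 and -0.43 to 0.0049 for Cish. By genotype with Senexin B the range was -0.75 to 0.40 for Socs2, -0.36 to 0.32 for Socs3, -0.30 to 1.09 for Pim2 and -0.0027 to 0.18 for Stat5a. For Senexin B in Cdk8 fl/fl lines the range was -0.089 to 0.091 for Stat5b, -0.69 to 0.63 for Socs2, -0.0055 to 1.19 for Pim2, -0.42 to 0.45 for Socs1, -0.49 to 0.10 for Socs3 and -0.53 to 0.28 for Socs5. For Senexin B in Cdk8 KO lines the range was -0.026 to 0.18 for Stat5a, -0.29 to 0.33 for Cish, -0.21 to 0.23 for Socs2, -0.60 to 0.091 for Socs3, -0.92 to 0.53 for Socs5, -0.31 to 0.14 for Pim1 and -0.14 to 0.96 for Pim2. Over 8 lines the range was -0.15 to 0.048 for Socs2. For the interaction the range was -0.38 to 0.30 for Socs3, -0.60 to 0.71 for Socs2, -0.96 to 0.45 for Pim2, -0.22 to 0.66 for Socs1 and -0.73 to 0.72 for Socs5. Under the block in Cdk8 fl/fl lines the range was -0.084 to 0.12 for Stat5b, -0.29 to 0.24 for Socs1 and -0.30 to 0.16 for Socs2. Under the block in Cdk8 KO lines the range was -0.41 to 0.013 for Socs5, -0.32 to 0.25 for Cish and -0.12 to 0.080 for Socs2. With 10 to 194 counts of Socs5 and 18 to 156 of Bcl6 per library, counting error limits both.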
